A study of Mus musculus with 11 samples.

Results

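The genes described here are 10 antioxidant enzymes of the mouse testis: the peroxiredoxins Prdx1, Prdx2, Prdx4, Prdx6 and Prdx6b, the glutathione peroxidase Gpx4, the glutathione transferases Gstt2, Gstm5 and Gstm1, and the reductase Txnrd3. They were taken by gene symbol from the 20389 rows of a table of unique molecular identifiers (UMIs, random tags that mark single RNA molecules), and were chosen for how their levels moved over germ cell development in these same cells. Their levels over the stages are therefore given as a description, without a test. Tests are given for other genes of the pathway.

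The cells were live testis cells of adult mice carrying a Dazl-GFP reporter, in which green fluorescent protein marks germ cells, and no mouse was treated. Single GFP-positive cells were sorted into plates and the 3′ ends of their RNA were counted by SORT-Seq. Mouse 1 gave 768 wells by CEL-Seq1, mouse 2 gave 384 wells by CEL-Seq2 and mouse 3 gave 768 wells by CEL-Seq2, of which 1 library was sorted by a gate and the other by index sorting. The mouse is the replicate (n = 3), and because mouse 1 alone had CEL-Seq1, mouse and protocol cannot be told apart.

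Peroxiredoxins reduce hydrogen peroxide and organic peroxides with a reactive cysteine, which in most of them is then restored by thioredoxin. Glutathione peroxidases and glutathione transferases use the small peptide glutathione, the former to reduce peroxides and the latter to conjugate reactive compounds. Thioredoxin and glutathione reductases return both systems to the reduced state with electrons from NADPH. In the testis, Gpx4, a selenoprotein that reduces lipid peroxides in membranes, is also a structural protein of the sperm midpiece. Txnrd3, a testis-enriched selenoprotein, reduces both thioredoxin and glutathione disulfide.

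Of 1920 wells, 1448 held at least 1000 UMIs, with totals over all wells of 16682671, 5866174 and 18032562 UMIs for mice 1, 2 and 3. Clustering without these genes placed 1253 cells in 13 stages, ordered by pseudotime. Stage 1 was undifferentiated spermatogonia-like and stage 2 differentiating spermatogonia-like. Stages 3, 4 and 5 stayed unnamed, led by genes such as Ccna2, by Rec8 and by Stra8. Stages 6 to 9 were leptotene and zygotene-like, the early steps of meiotic prophase. Stage 10 stayed unnamed, led by Ptchd3, and stages 11, 12 and 13 were pachytene-like, the last led by Adam3. Prm1, a spermatid gene, led stage 3, where the summed level of 7 elongating spermatid markers was 298 to 1954 CPM (UMIs of the genes per 1000000 nuclear UMIs). In a finer clustering (resolution 1.5, against 1), 22 cells led by Prm2 and Prm1 formed an elongating spermatid-like cluster outside the stages. Prm1 was then not among the 10 genes leading stage 3. Stage 11 rested on mice 1 and 3, since mouse 2 had 2 cells there. UMIs per spike-in UMI, a measure of RNA per cell, stood at -1.80 ± 0.34 relative to stage 1 on the log2 scale in stage 6 and at 1.70 ± 0.35 in stage 13 (SD, n = 3).

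Levels are in CPM, the UMIs of a gene per 1000000 nuclear UMIs of a mouse and stage, given as mean ± SD over mice unless each mouse is named. Because each RNA gives 1 tagged 3′ end, no division by length was made. All 10 genes passed the filter on low counts. Levels at stages 1 and 13 did not overlap between mice for any of the 10, with 5 lower and 5 higher. Over all genes tested, 39.7% were lower and 27.9% higher without overlap, and the choice of the genes fixed this count. The 10 genes together made up 0.170% ± 0.030 of nuclear UMIs at stage 1, 0.132% ± 0.024 at stage 6 and 0.308% ± 0.073 at stage 13.

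**Figure D1:**
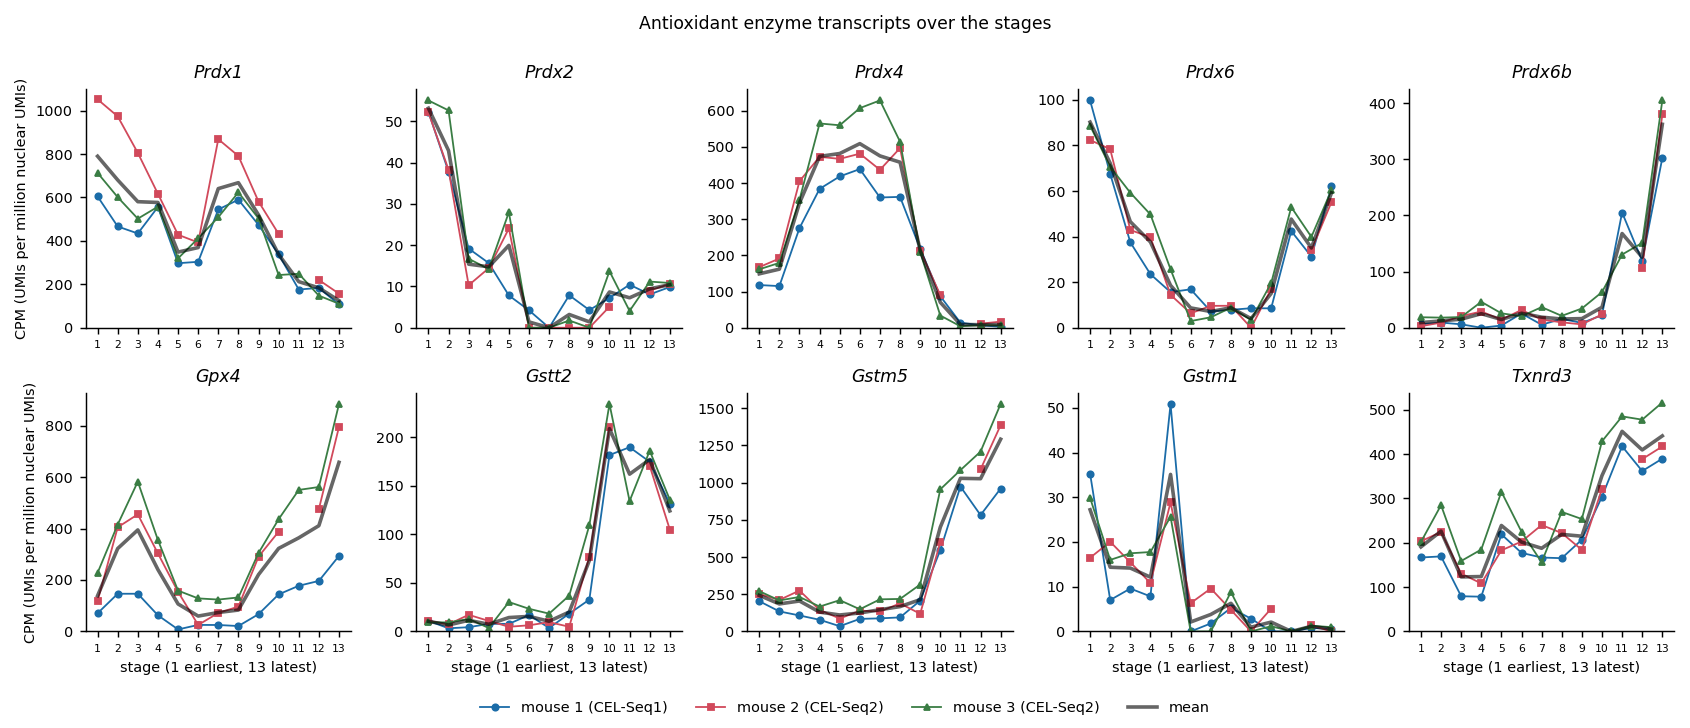
CPM (vertical axis, own linear scale per gene) at each of the 13 stages (horizontal axis) in mouse 1 (circles), mouse 2 (squares) and mouse 3 (triangles), with the mean as a thick line. Prdx1, Prdx2, Prdx4 and Gstm1 ended low, Prdx6b, Gpx4, Gstt2, Gstm5 and Txnrd3 ended high, and Prdx6 was lowest in the middle. Stage 11 has no point for mouse 2.

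Prdx1 encodes a cytosolic peroxiredoxin and lies on chromosome 4 (mm10, 116685544 to 116700822). It was highest at stage 1, with 605, 1052 and 713 CPM in mice 1, 2 and 3. At stage 13 it was 107, 157 and 111, below every earlier stage mean. All 3 mice were high at the start and low at the end, and mouse 2 was the highest in both. The log2 ratio of stage 13 to stage 1 was -2.63 ± 0.13. The course between was not even. The mean was 348 ± 70.2 at stage 5 and 369 ± 57.6 at stage 6, then 641 ± 198 at stage 7 and 668 ± 108 at stage 8. From stage 8 on each stage mean was below the one before, with 337 ± 94.6 at stage 10 and 184 ± 36.1 at stage 12. This late fall is one of CPM. Per spike-in UMI, on the log2 scale relative to stage 1, the gene was lowest at stage 6, at -2.87 ± 0.62. On that scale it stood at -1.63 ± 0.23 in stage 8, -0.52 ± 0.29 in stage 10 and -0.94 ± 0.36 in stage 13. In the ranking of its stage means, 4 of 12 neighbouring pairs differed by more than the larger SD of the pair. That SD is over mice, so this measure does not pair the stages of a mouse. The gene was detected in 97.3% of cells at stage 1 and 100% at stage 13, where the median depth was 102627 UMIs against 26991.

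The region before the start site of Prdx1 holds the core of an antioxidant response element, the site bound by NRF2, the transcription factor of the oxidative stress response. The core searched was TGACNNNGC, on both strands of the 250 bases before each RefSeq start site (GRCm38.p6). It occurred in 10.2% of 32851 mouse promoters of that length. Of the 10 genes, 7 had promoter entries, with 11 such windows in all. The core occurred in 2 of the 11, which belong to Prdx1 and Gstm5. The 7 genes are Prdx1, Prdx2, Prdx4, Gpx4, Gstm1, Gstm5 and Txnrd3. Both sites are printed because they sit before one gene that ended low and one that ended high, with the core in capitals, on the plus strand. The Prdx1 stretch is chr4:116685349-116685543 and its core starts 133 bases before the start site, on the minus strand. The Gstm5 stretch is chr3:107895791-107895820, with its core 42 bases before the start site. It overlaps exons of a neighbouring antisense gene, so 30 bases are shown. Both distances are counted from RefSeq start sites, which lie further downstream than the gene starts given here from GENCODE. The printed stretches stop before those gene starts.
Prdx1: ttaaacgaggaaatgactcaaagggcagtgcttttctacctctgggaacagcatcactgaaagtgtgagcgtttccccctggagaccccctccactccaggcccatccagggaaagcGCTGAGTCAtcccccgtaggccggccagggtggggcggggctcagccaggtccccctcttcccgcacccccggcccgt
Gstm5: ctgcgcctgcgcaccgcccacTGACCACGC
Both matches are a description of the letters. The long core of the A-MYB site, GGCAGTT, which belongs to a transcription factor of pachytene spermatocytes, occurred in 3.33% of promoters and in none of these windows. A shorter MYB core, CAGTT, occurred in 39.1% of promoters and, of the 11 windows of these 7 genes, in 4, which belong to Gpx4 and Gstm5. TATAAA, the TATA box, occurred in 12.4% of promoters and in 2 of the 11 windows, which belong to Prdx1 and Gstm1.

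Prdx2 encodes another cytosolic peroxiredoxin, on chromosome 8 (84969587 to 84974834). It stood at 52.3, 52.2 and 55.1 CPM in mice 1, 2 and 3 at stage 1. It was 9.86, 10.6 and 10.8 at stage 13. The mice were close to each other at both ends. The log2 ratio was -2.24 ± 0.05. The lowest point lay in the middle: from stage 6 to stage 9 the stages held 1, 0, 4 and 3 UMIs. With 0 UMIs of 984648 at stage 7, a level of up to 3.05 CPM is allowed, by counting error only. The last exon of Prdx2 overlaps Junb on the other strand, and whether the counting used strand is not given in the sources used here.

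Prdx4 encodes the peroxiredoxin of the endoplasmic reticulum, where it takes part in the oxidation of newly made proteins, and is the X-linked gene of the group (chromosome X, 155323918 to 155340754). As background, the X chromosome is transcriptionally silenced in pachytene spermatocytes. Prdx4 was 118, 168 and 161 CPM in mice 1, 2 and 3 at stage 1. Its mean peaked at stage 6, with 439, 481 and 607, above stage 1 in all 3 mice. The single mice were highest at stages 6, 8 and 7. Stages 8, 9 and 10 then had means of 458 ± 83.5, 214 ± 4.70 and 70.3 ± 31.7 CPM. Per spike-in UMI there was no such rise at stage 6, and smaller ones at stages 3 and 8, where every mouse was above stage 1. On the log2 scale relative to stage 1, Prdx4 then stood at 0.41 ± 0.10 in stage 3 and -0.02 ± 0.50 in stage 6. It was 0.20 ± 0.19 in stage 8 and -0.49 ± 0.50 in stage 10. By stage 13 the gene was down to 2.54, 17.0 and 6.51, all below the lowest mouse of stage 1. The log2 ratio to stage 1 was -4.25 ± 0.94, and its spread came with 9, 16 and 27 UMIs at stage 13. Stages 4 to 8 held means between 458 and 509 in which neighbours in rank did not differ beyond their spread. The gene was seen in 87.9% of cells at stage 6, with a median depth of 7384 UMIs, and in 39.0% at stage 13.

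Prdx6 and Prdx6b differed in the first part of the order, where Prdx6 fell from stage 1 to stage 9 and Prdx6b did not. Both were higher at stage 13 than at stage 9. Prdx6 encodes a peroxiredoxin that is restored by glutathione and also acts on phospholipids (chromosome 1, 161240112 to 161251219). Prdx6b, its close relative, has 1 exon in the annotation (chromosome 2, 80292472 to 80295356). Of the 50-base words in the last 500 bases of each transcript, 0 were shared with any other gene for both, so their 3′ counts can be told apart.

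Prdx6 was low in the middle of the order and high at both ends. It was 99.8, 82.4 and 88.7 CPM in mice 1, 2 and 3 at stage 1. The mean was lowest at stage 9, with 3.99 ± 4.31 on 7 UMIs. It returned to 62.0, 55.2 and 60.5 at stage 13, close to each other and below stage 1 in all 3 mice. The log2 ratio was -0.60 ± 0.07. Per spike-in UMI it was 1.10 ± 0.38 higher on the log2 scale at stage 13 than at stage 1, so its direction depends on whether RNA is scaled to the total or to the spike-in.

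Prdx6b was 6.08, 2.75 and 18.7 CPM in mice 1, 2 and 3 at stage 1, on 26 UMIs in all. Its mean stayed between 9.17 and 25.8 up to stage 9. It was 36.5 ± 23.3 at stage 10, 126 ± 22.8 at stage 12, and 302, 380 and 405 in mice 1, 2 and 3 at stage 13. Every mouse was highest at stage 13. The log2 ratio to stage 1 was 5.49 ± 1.15, with 5.42, 6.67 and 4.37 in mice 1, 2 and 3. Cells with a Prdx6b UMI were 24.7% at stage 1 and 100% at stage 13. The 2 libraries of mouse 3 differed at stage 1, where the gate-sorted one had 30.4 CPM on 19 UMIs and the index-sorted one 2.24 on 1 UMI, and stood at 425 and 309 at stage 13. Prdx6b was among the 10 genes leading stage 13 by fold.

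Of the UMIs of both genes, summed over mice, the Prdx6b share was 11.2% in stage 1 cells, then 45.5% in stage 5, 75% in stage 6 and 85.6% in stage 13. The middle stages rest on few UMIs, with 18 of Prdx6b and 6 of Prdx6 at stage 6. At stage 13 there were 3111 and 523. The ratio of Prdx6b to Prdx6 UMIs at stage 13 was 4.88, 6.88 and 6.69 in mice 1, 2 and 3, against 0.061, 0.033 and 0.211 at stage 1.

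**Figure D2:**
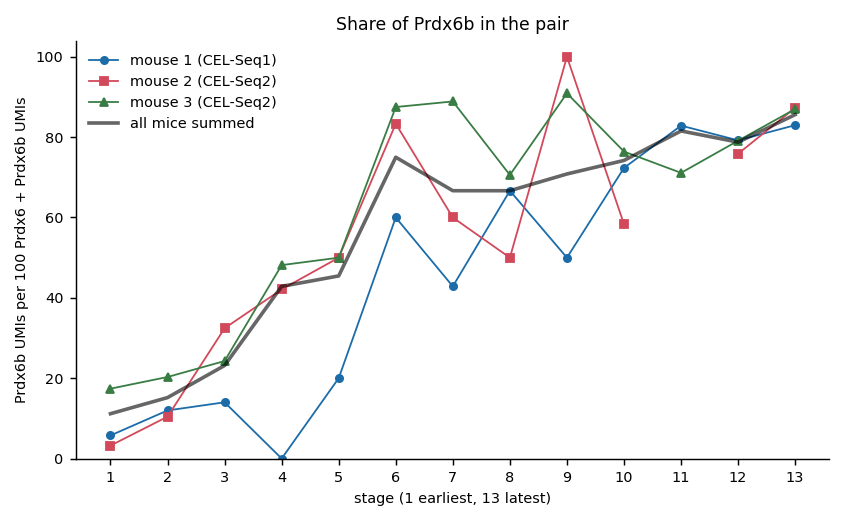
Prdx6b UMIs per 100 UMIs of Prdx6 and Prdx6b (vertical axis) at each stage (horizontal axis), in each mouse (thin lines with points) and over the mice summed (thick line). The summed share goes from 11.2 at stage 1 to 85.6 at stage 13, and the mice are widest apart between stages 4 and 9, where the pair has few UMIs.

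Gpx4 lies on chromosome 10 (80047166 to 80056439). It was 70.6, 118 and 228 CPM in mice 1, 2 and 3 at stage 1. Stage 2 gave 146, 405 and 415, and a first high at stage 3 gave 146, 455 and 582. Stage 3 was led by Prm1, and its elongating spermatid markers summed to 298 to 1954 CPM, against 10.3 to 72.9 at stage 2. Whether spermatid RNA added to the Gpx4 value at stage 3 was not tested. The mean was lowest at stage 6, with 59.7 ± 59.5. It was 293, 795 and 884 at stage 13, the highest stage of every mouse. The log2 ratio of stage 13 to stage 1 was 2.24 ± 0.43. Mouse 1 was the lowest and mouse 3 the highest in 12 of the 12 stages with 3 mice, and at stage 13 mice 2 and 3 averaged 2.86 times mouse 1. In the ranking of stage means, 0 of 12 neighbouring pairs differed beyond their spread over mice. Within each mouse, stage 13 was still above stage 12, which had 196, 475 and 561 CPM in mice 1, 2 and 3. Of the 50-base words in the last 500 bases of Gpx4, 88.9% also occur in the pseudogene Gpx4-ps2, so its counts are uncertain to the extent that reads were shared between the copies.

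Gstt2, a theta-class glutathione transferase, lies on chromosome 10 (75831114 to 75837424). It was 10.95, 10.99 and 9.33 CPM in mice 1, 2 and 3 at stage 1. Up to stage 8 its mean stayed at or below 20.1. It was 73.2 ± 38.5 at stage 9 and reached 182, 211 and 235 at stage 10. It then was 132, 105 and 136 at stage 13. The peak in CPM thus lay before the last stage, at stage 10 in mice 2 and 3 and at stage 11 in mouse 1. Per spike-in UMI the mean was highest at stage 12. A cell held on average 9.53 Gstt2 UMIs at stage 10 and 13.8 at stage 13. The log2 ratio of stage 13 to stage 1 was 3.45 ± 0.29. The gene was among the 10 leading stage 10 by fold, and was seen in 20.5% of cells at stage 1 and 97.1% at stage 10.

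Gstm5 and Gstm1 are mu-class glutathione transferases in 1 cluster on chromosome 3. Gstm5 (107895821 to 107898686) was 203, 253 and 271 CPM in mice 1, 2 and 3 at stage 1. Stage 5 had the lowest mean, 111 ± 89.8, and stage 9 stood at 214 ± 98.4. Stage 10 had 700.4 ± 222, and the mice reached 960, 1386 and 1528 in stage 13. The late stages were above stages 1 to 9 in all mice. The log2 ratio to stage 1 was 2.39 ± 0.14. At stage 13 a cell held a median of 112.5 Gstm5 UMIs, with quartiles of 78.3 and 163. In the authors' transcripts, which correct for UMIs used more than once, mouse 1 stood at 1149 CPM at stage 13, 1.20 times its UMI value. The same ratio was 1.01 in mouse 2 and 1.02 in mouse 3.

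Gstm1 (108012255 to 108017973) was 35.3, 16.5 and 29.9 CPM in mice 1, 2 and 3 at stage 1. It was 50.8, 28.9 and 25.7 at stage 5, its highest mean, although mouse 3 was higher at stage 1. From stage 6 on no stage mean exceeded 6.29. At stage 13 the 3 mice held 2, 0 and 4 UMIs, or 0.564, 0 and 0.964 CPM. The log2 ratio to stage 1, with a pseudocount of 1, was -4.21 ± 0.29. Its size depends on the scale, with -5.98 at a pseudocount of 0.1, -2.50 at 5 and -5.01 over UMIs of even autosomes. At stage 11 there were 0 UMIs of 1682946, which allows up to 1.78 CPM. Of the UMIs of both genes, Gstm5 held 89.1% in stage 1 cells, 79.6% in stage 5 and 99.9% in stage 13.

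At stage 5, where Gstm1 was highest, so were markers of Sertoli cells, the somatic cells that nurse germ cells and that a sort for Dazl-GFP should leave out. The summed level of 9 Sertoli markers was 390 to 1133 CPM at stage 5, 315 to 341 at stage 1 and 14.9 to 26.5 at stage 13. All 9 were detected at stages 1 and 5. At stages 7 and 8 the markers summed to 342 to 532 and 357 to 567 CPM, above stage 1. The Gstm1 means there were 3.80 and 6.29. At stage 5, 17 of 80 cells held UMIs of at least 3 of 8 of the Sertoli markers. These cells held 26.6% of the UMIs but 25 of 30 Gstm1 UMIs. Without such cells, Gstm1 at stage 5 was 7.17 ± 1.92 instead of 35.1 ± 13.7, and the highest mean was at stage 1, with 19.6 ± 5.41 instead of 27.2 ± 9.68. The stage 5 value of Prdx2, above those of stages 4 and 6, went from 19.96 ± 10.7 to 7.41 ± 5.61, and Prdx6 from 18.6 ± 6.16 to 8.68 ± 7.56. At stage 1, Prdx2 without such cells was 47.8 ± 5.88 and Prdx6 was 91.4 ± 4.90. This selection of cells was chosen after seeing the data, and a deeper cell meets it more easily. Clu, among the 8 markers used, was also among the 10 genes leading stage 5. Whether Sertoli RNA gave the stage 5 values of these genes was not tested. The 6 markers of Leydig cells, which make testosterone, summed to 4.81 to 27.4 CPM at stage 5 and 0 to 13.1 at stage 1. Of these, Cyp17a1, Cyp11a1, Hsd3b1 and Hsd3b6 were at 0 at both stages. Star was detected at both, on 10 UMIs at stage 5 and 19 at stage 1, and Insl3 had 1 UMI at stage 5 and 0 at stage 1.

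**Figure D3:**
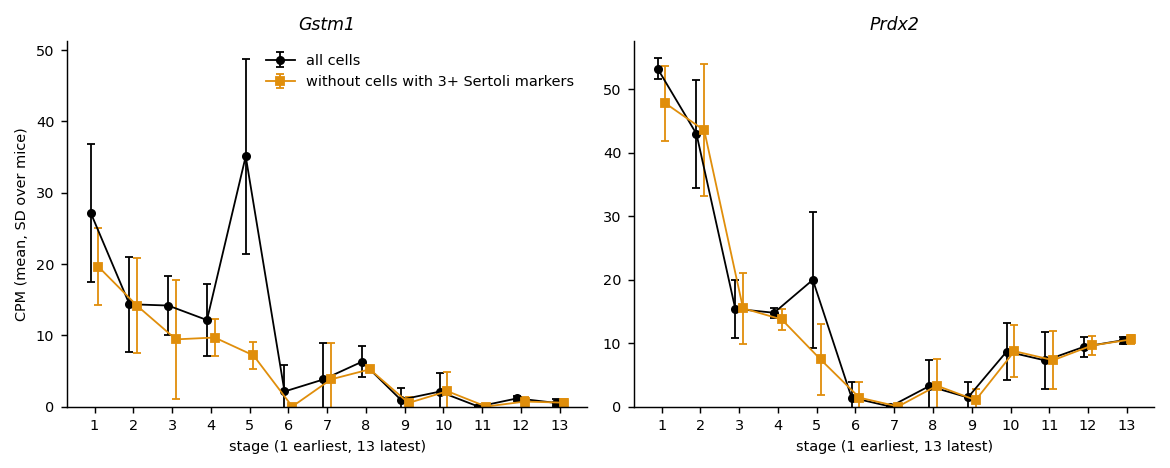
Gstm1 (left) and Prdx2 (right) in CPM (vertical axis, mean with SD over mice) at each stage (horizontal axis), from all cells (circles) and without cells holding UMIs of at least 3 Sertoli markers (squares). The stage 5 value of Gstm1 goes from 35.1 to 7.17, while the values from stage 6 on stay close together.

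Txnrd3 lies on chromosome 6 (89643988 to 89675529). It was 167, 203 and 202 CPM in mice 1, 2 and 3 at stage 1. Its mean was lowest at stage 3, with 123 ± 40.3, and was 239 ± 68.2 at stage 5. From stage 6 to stage 9 it lay between 187 and 219. It was 351 ± 67.7 at stage 10 and 389, 417 and 516 at stage 13. All mice were above their stage 1 level from stage 10 on. The log2 ratio of stage 13 to stage 1 was 1.20 ± 0.16, the smallest of the 5 genes that ended high. Only 2 of 12 neighbouring pairs in the ranking of its means differed beyond the spread: stage 10 above stage 5, and stage 7 above stage 4. In mouse 3 the second pair ran the other way, with 156 CPM at stage 7 and 185 at stage 4.

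Scaling to the spike-in in place of the total raised all late values, as the cells of stage 13 gave more UMIs per spike-in UMI. On that scale Gpx4 was 3.96 ± 0.28, Gstm5 4.10 ± 0.42, Txnrd3 2.91 ± 0.50, Gstt2 5.27 ± 0.64 and Prdx6b 7.43 ± 1.02 above stage 1 on the log2 scale. Prdx1 was -0.94 ± 0.36, Prdx2 -0.65 ± 0.34 and Prdx4 -2.79 ± 1.06. Prdx1 and Prdx2 were thus lower on both scales, by less per spike-in UMI. Gstm1 was -4.38 in mouse 1 and -2.86 in mouse 3, with no UMI at stage 13 in mouse 2.

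**Figure D4:**
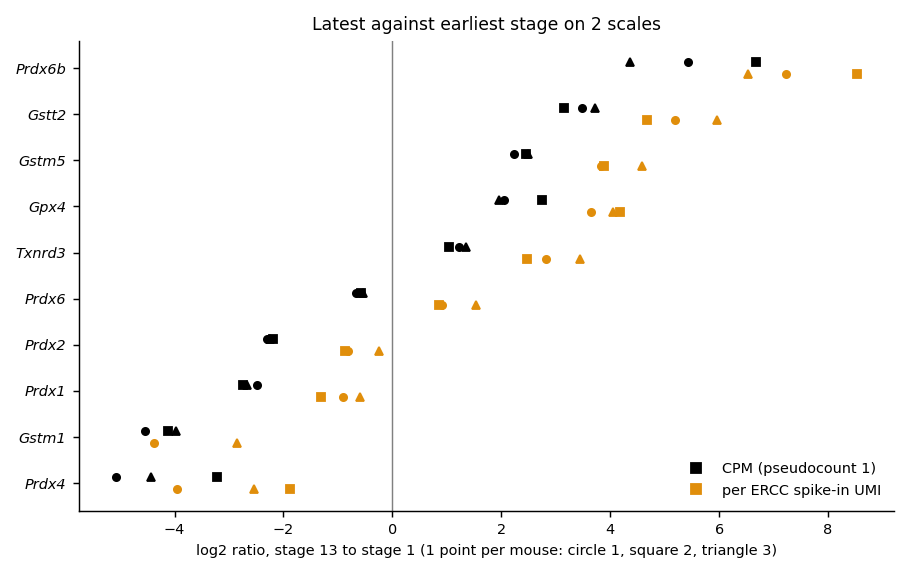
Log2 ratio of stage 13 to stage 1 (horizontal axis) for each gene (vertical axis), 1 point per mouse (circle mouse 1, square mouse 2, triangle mouse 3), in CPM (black) and per spike-in UMI (orange). Prdx6 lies at -0.60 on the first scale and 1.10 on the second, and the other 9 genes keep their side of 0. Mouse 2 has no spike-in point for Gstm1.

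Between genes, levels over the 38 sums of a mouse and stage were compared as log2(CPM + 1) after taking out each mouse's mean, as a description, since the sums share mice and depth. Prdx4 and Gstm5 ran opposite (r = -0.91), as did Prdx1 and Prdx6b (r = -0.85). Gstt2 and Gstm5 ran together (r = 0.83), as did Prdx6b and Gstm5 (r = 0.81) and Prdx2 and Prdx6 (r = 0.83). Prdx6 and Prdx6b had an r of 0.24. Among 7885 genes with a mean of at least 20 CPM, the gene most like Prdx1 was Sod1, the cytosolic superoxide dismutase (r = 0.96), followed by Sqstm1 and Jak1 (both 0.94). Prdx4 was most like the X-linked Lamp2 (r = 0.96), Prdx6b like Ppp3r2, Adam5 and Pom121l2 (all 0.95), and Gstm5 like Lyar (0.95). Gstt2 was most like Catsperg2, a subunit of the sperm calcium channel (r = 0.95), Lrrc34 and Piwil1 (both 0.93). The nearest to Gpx4 was Cep89 (0.90), to Txnrd3 Ptdss2 (0.89), to Prdx6 Atpif1 (0.89), to Gstm1 Arhgdia (0.86) and to Prdx2 Ap2a2 (0.85).

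The other genes of the pathway were tested, at stage 13 against stage 1, with edgeR's quasi-likelihood test with the mouse as a block and Benjamini-Hochberg adjustment over 11362 genes, called at an adjusted p under 0.05. Of 82 genes in 8 lists, 51 passed the filter on low counts. Of these, 31 fell, 12 rose and 8 were not called. These calls are on shares of nuclear UMIs, not per spike-in UMI. UMIs per spike-in UMI were 1.70 higher on the log2 scale at stage 13. A gene called lower by less than that need not be lower on the spike-in scale. Between the same stages the Sertoli markers went from 315 to 341 CPM down to 14.9 to 26.5. Without the cells holding at least 3 Sertoli markers, 30 of 48 genes that passed the filter fell and 12 rose. Of all genes tested 38.2% were lower and 36.6% higher, or 74.7% in either direction. Of the genes that took no part in the staging, as these lists did not, 40.8% were lower and 34.2% higher, or 74.9% together. The median log2 fold change was -1.05 over the 51 genes and -0.04 over all genes. Over all stages 50 of the 51 changed in the F test, against 95.8% of all genes and 95.6% of those outside the staging. With median-ratio size factors the median of all genes was -0.31 and with DESeq2 -0.32, so the folds below are relative to a centre that moves by that much. The folds of edgeR also carry a scaling of each sum (TMM) that the CPM beside them lack. With it the log2 ratio of Prdx1 was -2.28, against -2.63 in CPM. The rises of Sod2 and Prdx5 below are thus smaller in CPM than in edgeR, and the fall of Txnrd1 is larger.

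Of 5 tested genes in the list of other peroxiredoxins, sulfiredoxin and sestrins, 3 fell, 1 rose and 1 was not called. Prdx3, the mitochondrial peroxiredoxin, fell from 31.0 ± 8.40 to 0.174 ± 0.152 CPM, on 67 and 2 UMIs (ratio 0.0078, exact 95% counting interval 0.000925 to 0.0293). Prdx5, another peroxiredoxin, rose from 159 ± 23.4 to 201 ± 34.1 (log2 fold change 0.71 ± 0.19 SE, edgeR adjusted p = 0.00123). That call was lost without the mouse block (edgeR adjusted p = 0.0822). Sulfiredoxin, Srxn1, did not pass the filter, with 11 and 14 UMIs. In the thioredoxin list 6 of 7 genes fell and 1, the mitochondrial thioredoxin Txn2, rose. Txn1, the cytosolic thioredoxin, fell from 67.3 ± 20.3 to 4.46 ± 2.58 after a high of 195 ± 40.7 at stage 3. Txnrd2, the mitochondrial reductase and a paralogue of Txnrd3, fell from 13.3 ± 4.39 to 0.801 ± 1.15. Txnrd1, the cytosolic one, fell from 99.6 ± 25.5 to 49.0 ± 2.48 (log2 fold change -0.57 ± 0.24 SE, edgeR adjusted p = 0.0322), lower in 3 of 3 mice. This fall is one of share: there were 212 Txnrd1 UMIs in 73 cells at stage 1 and 420 in 82 cells at stage 13. Its edgeR adjusted p was 0.340 without the mouse block, 0.084 without mouse 2 and 0.0507 without mouse 3.

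In the glutathione lists the results were mixed. Gpx1, the abundant cytosolic glutathione peroxidase and the 1 tested of 7 on its list, fell from 140 ± 43.1 to 1.20 ± 0.44 CPM (log2 fold change -6.22 ± 0.40 SE, edgeR adjusted p = 1.08e-17). Gsr, the glutathione reductase, fell from 243 ± 44.4 to 4.39 ± 3.01 (log2 fold change -5.62 ± 0.33 SE). Of the synthesis and glutaredoxin list, 3 of 9 fell, 2 rose and 4 were not called. Gclc and Gclm, the subunits of the rate-limiting enzyme of glutathione synthesis, were not called in edgeR (log2 fold changes -0.32 and -0.08, adjusted p = 0.0861 and 0.995), and DESeq2 called both lower (adjusted p = 0.000448 and 0.0125). In CPM, Gclc went from 190 ± 56.8 to 114 ± 13.7 and Gclm from 180 ± 51.5 to 128 ± 8.99. Both were lower in 3 of 3 mice.

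Of 10 glutathione transferases tested, 7 fell and 3 rose. Gsto2 went up from 20.5 ± 3.62 CPM to 143 ± 20.9 (log2 fold change 3.20 ± 0.25 SE, edgeR adjusted p = 3.34e-15). Gstt3, a paralogue of Gstt2, rose from 13.2 ± 5.96 to 71.4 ± 3.46 (2.94 ± 0.40), highest at stage 13 where Gstt2 was past its peak in CPM. Gstz1 rose from 30.4 ± 12.4 to 56.0 ± 11.2, with a higher mean of 109 at stage 6. Among those that fell, Gsta4 went from 104 ± 45.7 to 1.40 ± 1.56 and Gsto1 from 71.1 ± 7.64 to 0.603 ± 0.526. Gstp1 went from 72 UMIs in stage 1 cells to 0 in stage 13, at least 91.9-fold lower over the group with a floor of 3 UMIs, and its level at stage 1 was uneven between mice (30.4 ± 42.3). Gstp1 and Gstp2 are near-identical neighbours, and how their reads were divided is not given in the sources used here. The paralogues of Gstm1, Gstm2 and Gstm6, fell from 7.03 ± 6.58 to 0.161 ± 0.278 and from 12.4 ± 10.4 to 0.255 ± 0.242. Both had their highest mean at stage 5, with 48.3 ± 27.6 and 24.0 ± 8.44, where the Sertoli markers were highest too. Without the cells holding at least 3 Sertoli markers, Gstm2 was 1.53 ± 1.75 at stage 1 and 3.32 ± 3.44 at stage 5, and Gstm6 was 4.04 ± 3.78 and 2.05 ± 3.55. Neither then passed the filter, so neither was tested without those cells. The Gstm2 call was lost without mouse 1 (edgeR adjusted p = 0.0764). Gstt1 did not pass the filter, with 3 and 1 UMIs.

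Of 3 superoxide dismutases and catalase tested, 2 fell and 1 rose. Sod1 fell from 1053 ± 153 to 127 ± 6.66 CPM (log2 fold change -2.67 ± 0.15 SE, edgeR adjusted p = 2.89e-19) and Cat, the peroxisomal catalase, from 38.6 ± 14.9 to 4.07 ± 1.10. Sod2, the mitochondrial dismutase, rose from 173 ± 11.4 to 195 ± 8.15 CPM, higher in 3 of 3 mice. Its edgeR log2 fold change, with the TMM scaling, was 0.54 ± 0.14 SE, larger than the CPM show. Its edgeR adjusted p was 0.0527 without mouse 2 and 0.0617 without mouse 3. In the list of NRF2 regulators, NADPH supply and stress targets 6 of 8 fell and 1 rose. Nfe2l2, which encodes NRF2, fell from 71.7 ± 28.97 to 1.63 ± 0.69 (-5.20 ± 0.37), while Keap1, which targets NRF2 for degradation, rose from 19.7 ± 6.78 to 77.8 ± 2.95 (2.30 ± 0.26, edgeR adjusted p = 1.07e-10). Hmox1, the inducible heme oxygenase, fell from 162 ± 61.1 to 1.15 ± 1.53.

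In the list of selenoprotein synthesis, which serves selenoproteins such as Gpx4 and Txnrd3, 3 of 8 rose, 3 fell and 2 were not called. Sephs2, which makes the selenium donor, went up from 27.7 ± 17.7 CPM to 314 ± 48.7 (log2 fold change 3.98 ± 0.25 SE, edgeR adjusted p = 2.92e-18). Eefsec, the elongation factor that delivers selenocysteine, rose from 65.7 ± 15.9 to 147 ± 26.2 (1.58 ± 0.21, edgeR adjusted p = 6.68e-09). Sephs1 rose and Sepsecs, Pstk and Secisbp2l fell, with log2 fold changes between -1.05 and 1.02.

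**Figure D5:**
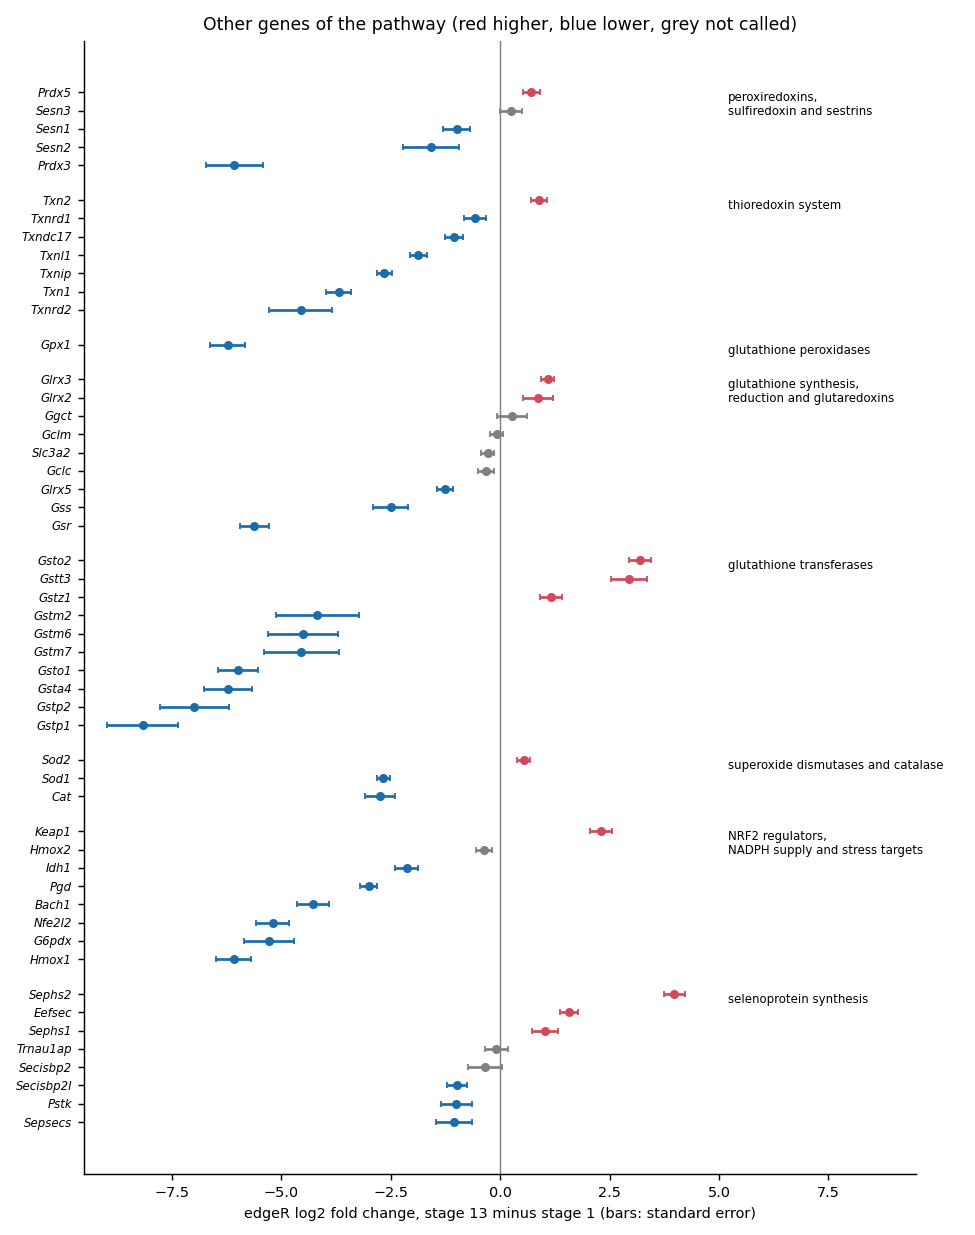
edgeR log2 fold change of stage 13 against stage 1 (horizontal axis, bars are standard errors) for the 51 tested pathway genes that are not among the 10, grouped by list. Red genes were called higher (12), blue lower (31) and grey not called (8); the largest rises are Sephs2, Gsto2, Gstt3 and Keap1, the largest falls Gstp1, Gstp2 and Gpx1.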

How the data were processed

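Per the labels' protocols, single cells were sorted and libraries made by SORT-Seq with CEL-Seq1 or CEL-Seq2. Per the submitters' processing notes, BWA 0.7.10 and the build mm10 were used, and the annotation and counting tool are not given in the sources used here. The authors deposited UMI counts and read counts, both whole numbers for each gene in each well. A further deposited table gives transcripts, which are estimated counts (rounded to whole numbers for the tests). In the transcripts table the wells of mouse 1 stand in another order (2 of 768 at the same position) and were matched by expression profile (lowest r 0.970).

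UMI counts were the values used. Wells with at least 1000 UMIs over autosomes, X and Y, leaving out spike-ins, mitochondrial transcripts, eGFP and Rn45s, were kept. Each well received 1 sorted cell, so no doublet caller was run. Staging used 1500 variable genes of odd autosomes without the 10 genes and the pathway lists, aligned across mice with Seurat 5.3.0, clustered with scanpy 1.11.5 (15 components, resolution 1) and ordered by diffusion pseudotime. A stage needed 10 cells in 2 mice, no lead by somatic markers and a median depth no more than 3 times below that of all cells, and 195 cells in 3 clusters failed on depth. Names ending in "-like" rest on marker lists.

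UMIs were summed per mouse and stage (38 sums of at least 10 cells) and tested with edgeR 4.0.16 (TMM, glmQLFit, mouse and stage as terms, adjusted p under 0.05). DESeq2 1.42.0, other scalings, filters, tables and stagings, and leaving out each mouse were alternatives. Log2 ratios used a pseudocount of 1. Stages of 1 mouse share the animal. As a check, deviations of its sums from the stage means correlated with a median r of 0.79, 0.47 and 0.62 in mice 1, 2 and 3 (lowest 0.29). The test was also run on simulated counts, which were drawn from the gene means without a mouse effect. Intervals cover counting error only.

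The 10 genes, the lists and the tests were chosen with earlier results of these data known. Pathway genes were named by a rule: the 6 called genes with the largest change in each direction that moved the same way in every mouse, plus the closest paralogues and direct partners whatever their values. Like genes were the 3 with the highest r. Promoter sequences are from RefSeq (GRCm38.p6) and positions from GENCODE on mm10.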

Additional observations from a re-analysis of the deposited data

Results flagged for a closer look

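The 10 genes were also detected in wells outside the stages, above the limit that a count of 0 allows (3 UMIs of the set's total). The 472 wells below 1000 UMIs held 179485 UMIs in all, and the limit was 16.7 CPM. There, Gstm5 stood at 557 CPM, Prdx1 at 390.0, Txnrd3 at 273, Gpx4 at 217, Prdx6b at 106, Prdx4 at 89.1, Gstt2 at 61.3 and Prdx6 at 22.3. Prdx2 and Gstm1 were below the limit, with 1 and 2 UMIs.

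The 195 cells of the 3 clusters left out for low depth held 473926 UMIs, with a limit of 6.33 CPM. Gstm5 stood at 443 CPM, Prdx1 at 378, Txnrd3 at 287, Gpx4 at 262, Prdx4 at 99.2, Gstt2 at 63.3, Prdx6b at 50.6, Prdx6 at 33.8, Prdx2 at 12.7 and Gstm1 at 8.44. Gstt2 was uneven between the clusters of 87, 60 and 48 cells, with 103, 70.3 and 6.99 CPM on 18, 11 and 1 UMIs. Prdx6b stood at 51.6 and 83.1 CPM in the larger clusters, on 9 and 13 UMIs, and had 2 UMIs in the smallest.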

How the results depend on the processing

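Counts of called pathway genes stayed within 1.5 times in 16 alternatives, with 10 to 15 higher and 26 to 37 lower. Leaving out 1 mouse gave 10 to 12 higher and 29 to 33 lower. Without the mouse as a block, 10 pathway genes were higher and 26 lower, and the calls of Prdx5 and Txnrd1 were lost. Leaving out stage 11 gave 12 and 32, and using the index-sorted library alone for mouse 3 gave 11 and 30. Without cells holding at least 3 Sertoli markers there were 12 and 30, of 48 tested. These 3 alternatives were chosen after seeing the data. Of the named pathway genes, Gclm turned to 0.12 with sums of at least 20 cells and was called in neither fit. Gclc, not called, was called lower in 9 alternatives, and Txnrd1 lost its call in 6. Of the log2 ratios of the 10 genes, 121 alternative values moved by less than 1 SD and 28 by more, with the sign kept. 1 turned: Prdx6 per spike-in UMI, at 1.10. The alternative with the index-sorted library has no mouse 3 ratio, so its values repeat those without mouse 3. The reads gave Prdx1 -3.13 and Gstm1 -5.28. Depth limits Gstm1, Prdx2 and Prdx6 between stages 6 and 9, where each stage held 10 UMIs or fewer of each.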
